A study of Mus musculus with 30 samples.

Results

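The effect described here is the difference between Furin knockout (KO) and wild type (WT) CD8+ T cells in their response to the cytokine TGFB1. For each gene it is the change with TGFB1 against no cytokine in KO cells minus the same change in WT cells, on the log2 scale. The libraries were chosen by their labels for genotype and treatment, and the TGFB1 culture and the culture without cytokine were matched by the number in their titles. This took 20 of the 30 libraries of the series, and the IL12 cultures were not used. The cells were naive CD8+ T cells, isolated with magnetic beads from spleen and lymph nodes of 8-week-old mice of the C57BL/6 strain. They were cultured for 3 days in the serum-free medium X-VIVO 20 and stimulated with plate-bound anti-CD3 at 5 µg/ml and anti-CD28 at the same dose. The groups were Furin KO with TGFB1 at 0.5 ng/ml, Furin KO without added cytokine, WT with TGFB1 at 0.5 ng/ml and WT without added cytokine, with 5 libraries each. KO numbers were 63, 68, 70, 73 and 74, and WT numbers were 62, 67, 71, 72 and 75. Values by library are given below in these orders. Numbers 63 and 62 were male, and the other 4 numbers of each genotype were female. The deleted part of Furin and the cells in which it is deleted are not stated, nor that each number is an animal of its own, so the p-values measure the spread between these cultures, which may be partly technical.

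TGFB1 is a cytokine that is secreted as a latent complex and, once released, binds the receptor kinases TGFBR2 and TGFBR1, which phosphorylate SMAD2 and SMAD3. In activated CD8+ T cells it is known for lowering cytotoxic genes such as Gzmb and for raising Itgae, the CD103 integrin chain of tissue-resident cells. FURIN is a protease of the secretory pathway that cuts the precursors of TGFB1 and many other secreted or membrane proteins. TGFB1 was added to the cultures as recombinant protein.

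The total count per library used lay between 7522984 and 11435315, and 11414 genes passed the filter on low counts. Levels are given as CPM, counts scaled to a common library size. A gene is called where the adjusted p of edgeR's quasi-likelihood test, with Benjamini-Hochberg adjustment over all genes tested, is below 0.05. Cd8a, a chain of the CD8 coreceptor, lay between 546.1 and 1188 CPM in the 20 libraries, and the 10 CD8 T cell markers together took 3619 to 4779 CPM in KO with TGFB1, 3916 to 4160 CPM in KO without cytokine, 4250 to 6546 CPM in WT with TGFB1 and 3947 to 4410 CPM in WT without cytokine. Furin itself averaged 77.9 ± 9.13 CPM in KO with TGFB1 and 32.6 ± 0.878 CPM in KO without cytokine, against 80.9 ± 7.77 CPM in WT with TGFB1 and 34.4 ± 3.54 CPM in WT without cytokine (SD, n = 5 each). Its counts therefore did not separate the genotypes and do not check the labels. Of the 10 B cell markers, 3 were at 0 in all 20 libraries, Pax5 and Iglc1 among them. Their sum was 8.84 to 14.2 CPM in KO with TGFB1 and 5.99 to 10.9 CPM in KO without cytokine, against 12.1 to 18.9 CPM in WT with TGFB1 and 9.54 to 16.8 CPM in WT without cytokine. Cd79b, at 5.99 to 18.5 CPM, made up most of it, and the part of this signal in the results was not tested.

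Among the TGFB1 cultures, 1 of each genotype stood apart from the others of its label. WT 62 with TGFB1 lay at 6.8 on the first principal component and −12.4 on the second, while the other 4 WT cultures with TGFB1 lay between 38.5 and 50.4 on the first and between 0.8 and 28.1 on the second. KO 73 with TGFB1 lay at 32.0 and −10.2, while the other 4 KO cultures with TGFB1 lay between 1.9 and 23.7 on the first component and between −54.7 and −18.4 on the second. Results are given below with both, and the counts without each of them stand beside the gene groups.

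**Figure D1:**
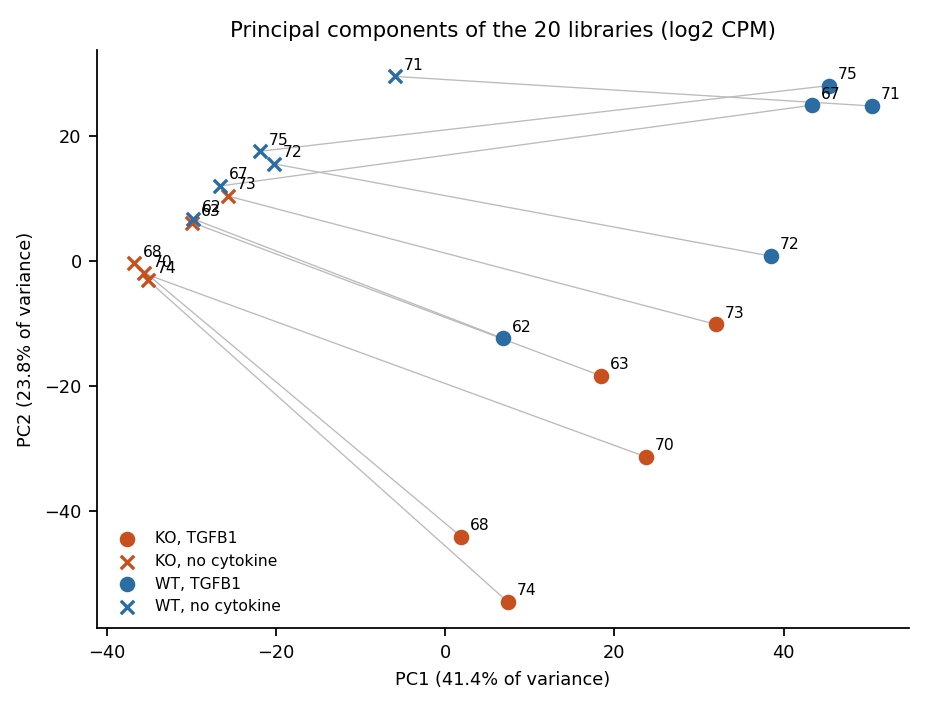
First and second principal components of log2 CPM of the tested genes, 1 point per library, coloured by genotype and treatment. They held 41.4% and 23.8% of the variance. The KO cultures with TGFB1 lie lower on the second component than the WT cultures with TGFB1, except that WT 62 lies among the KO cultures.

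The genotypes differed in the TGFB1 response of 1366 of the 11414 genes tested, or 12%. The KO response was the higher in 668 genes (5.85%) and the lower in 698 genes (6.12%). The difference was at least 2-fold in 86 and 183 of them. TGFB1 alone changed 3895 genes in KO cells (34.1%) and 5444 genes in WT cells (47.7%), and 2316 genes changed in the same direction in both genotypes while 71 changed in opposite directions. Without the block for the title number, 329 genes (2.88%) were called, 147 higher and 182 lower, and each of these was also called with it. Leaving out 1 number at a time left between 127 calls (without WT 75) and 3268 calls (without WT 62), with 1960 without KO 73. The calls numbered 160 when KO 68 was left out, 185 for KO 74, 203 for WT 67, 299 for WT 71, 538 for KO 70, 600 for KO 63 and 956 for WT 72. The count of calls thus depended strongly on which cultures were in the fit. Over all genes tested the calls were 3268 of 11538 without WT 62 and 1960 of 11482 without KO 73. They were 600 of 11482 without KO 63, 299 of 11486 without WT 71 and 203 of 11492 without WT 67. They were 160 of 11491 without KO 68 and 127 of 11483 without WT 75. Counts of a gene list in other fits are to be read beside those of all genes. A called gene given below without its other fits was not always called in them.

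The called genes fall into kinds by what TGFB1 did in each genotype. Of the 668 genes with the higher KO response, 380 fell in WT and were not called in KO, 184 rose in KO and were not called in WT, 48 rose in both, 32 rose in KO and fell in WT, 18 fell in both and 6 were called in neither. Of the 698 genes with the lower KO response, 312 rose in WT and were not called in KO, 254 fell in KO and were not called in WT, 57 fell in both, 39 fell in KO and rose in WT, 24 rose in both and 12 were called in neither. The larger of both changes was the WT one in 764 of the 1366 genes and the KO one in 602. This was a share near that of all genes, where the KO change was the larger in 4807 of 11414. In 1111 of the called genes the genotypes differed more with TGFB1 than without cytokine, and in 255 they differed more without cytokine. The larger genotype difference was with TGFB1 in 7765 of all 11414 genes. Over all genes tested, Pearson's r between both responses was 0.71 and Spearman's rho 0.53, across 11414 genes that are not independent replicates. Taken gene by gene, the responses of the 5 KO numbers and of the 5 WT numbers did not overlap in 732 genes (6.41%), with KO above in 386 (3.38%) and below in 346 (3.03%), and 534 of these 732 genes were also called.

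**Figure D2:**
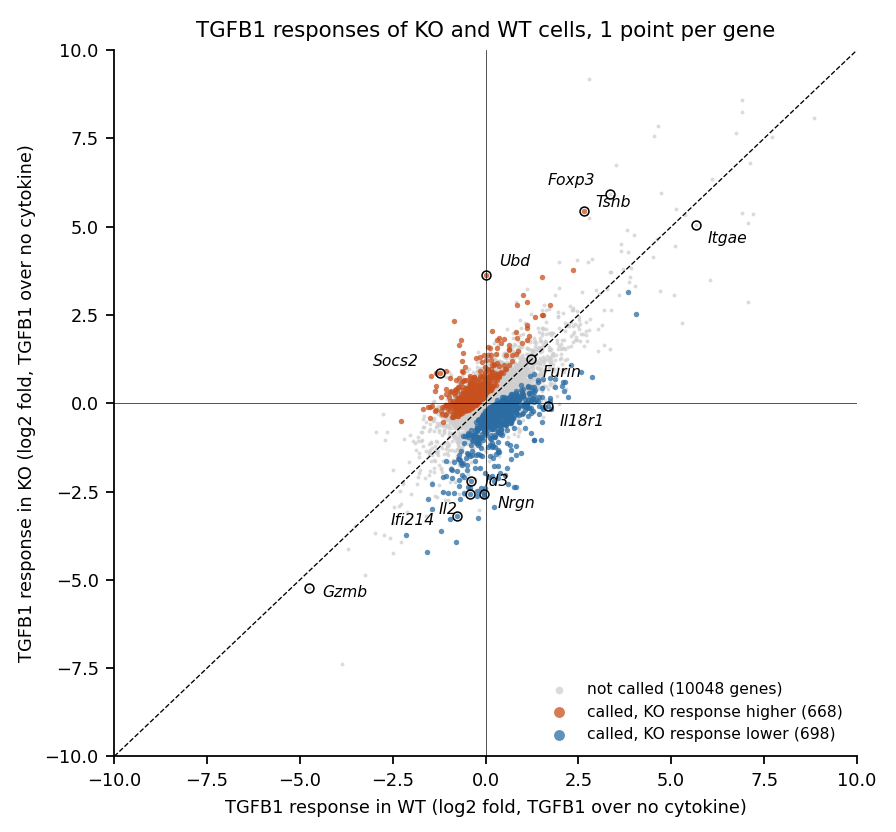
Log2 change with TGFB1 in KO cells against the same change in WT cells, 1 point per gene tested, with genes whose responses differed between genotypes coloured by direction. Itgae and Gzmb lie far from 0 in both genotypes and near the diagonal, Ubd and Tshb lie above it, and Nrgn and Il18r1 lie below it.

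The genes best known as TGFB1 targets moved far in both genotypes. Itgae stood at 41.6, 28.4, 84.5, 65.8 and 35.9 CPM in KO with TGFB1 and at 1.43, 1.36, 1.06, 1.18 and 2.1 CPM in KO without cytokine, against 28.8, 244, 268, 152 and 253 CPM in WT with TGFB1 and 2.44, 2.67, 7.29, 2.74 and 2.71 CPM in WT without cytokine. It rose by 5.05 ± 0.32 in KO and by 5.67 ± 0.28 in WT on the log2 scale (SE). The difference of −0.63 ± 0.54 was not called (adjusted p = 0.436). The levels with TGFB1 overlapped between genotypes through WT 62 alone, and the 4 other WT cultures lay above the 5 KO cultures. Gzmb, which encodes the cytotoxic protease granzyme B, averaged 13.3 ± 6.85 CPM in KO with TGFB1 and 484 ± 107 CPM in KO without cytokine, against 53.5 ± 64.0 CPM in WT with TGFB1 and 956 ± 118 CPM in WT without cytokine (SD, n = 5 each). With TGFB1, WT 62 stood at 166 CPM and the other 4 WT cultures at 13.9 to 41.5 CPM, against 6.11 to 21.5 CPM in KO. Gzmb fell in both genotypes, and the difference of −0.50 ± 0.60 was not called (adjusted p = 0.587). Leaving out WT 62 gave a difference of 0.11 (adjusted p = 0.822). Furin rose by 1.25 ± 0.09 in KO and by 1.23 ± 0.09 in WT, with a difference of 0.02 ± 0.13 (adjusted p = 0.932).

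Among the TGFB pathway's own components, the difference in response did not pass the threshold for Tgfbr1, Tgfbr2, Tgfb1, Smad7 and Skil, and passed it for Ski, Smad2 and Pmepa1. Tgfbr1 differed by 0.23 ± 0.17 (adjusted p = 0.379), and Tgfbr2 by −0.73 ± 0.24 (adjusted p = 0.0593). Tgfb1, the gene of the cytokine itself, differed by 0.25 ± 0.08 (adjusted p = 0.066). The feedback inhibitor Smad7 rose in both genotypes and differed by −0.71 ± 0.25 (adjusted p = 0.0722), and the SMAD repressor Skil rose in both and differed by −0.21 ± 0.10 (adjusted p = 0.154). Of 26 tested members of the list of TGFB and SMAD response genes, 2 had a called higher and 3 a called lower KO response (19.2%, beside 12% of all genes). The median difference of the 26 was −0.09, beside 0.005 over all genes. Ski, which like Skil represses SMAD complexes, rose by 0.77 in KO and by 1.2 in WT (difference −0.43 ± 0.13, adjusted p = 0.0436). This call was lost without the block (adjusted p = 0.0728) and held in 2 of 10 fits without 1 number. Pmepa1, a feedback inhibitor of TGFB signalling named here after its values were seen, rose by 3.14 in KO and by 3.83 in WT (difference −0.69 ± 0.18, adjusted p = 0.0293), a call lost without the block (adjusted p = 0.0896). Smad2, a signal transducer of the receptors, stood at 107, 120.4, 113, 96.9 and 126 CPM in KO with TGFB1 and at 84.4, 90.2, 88.2, 87.6 and 84.0 CPM in KO without cytokine, against 91.4, 69.1, 77.2, 89.4 and 71.5 CPM in WT with TGFB1 and 92.0, 87.0, 84.3, 89.0 and 84.7 CPM in WT without cytokine. It rose in KO and was not called in WT, and the difference was 0.51 ± 0.10 (adjusted p = 0.0153). The 5 KO responses of Smad2 lay above the 5 WT responses. Nedd9, a scaffold protein of integrin signalling, fell in KO and was not called in WT (difference −0.84 ± 0.14, adjusted p = 0.0153). Cdkn1a, an inhibitor of the cell cycle, had the higher KO response (difference 1.18 ± 0.30, adjusted p = 0.0289). The Cdkn1a call was lost without the block (adjusted p = 0.139) and held in 3 of 10 fits without 1 number. Without the block 2 of the 26 were called, and leaving out 1 number gave between 2 (without WT 67) and 10 calls (without WT 62), with 6 without KO 73. Without WT 62, Tgfbr2 (−0.94, adjusted p = 0.00236), Smad7 (−0.85, adjusted p = 0.0129), Skil (−0.29, adjusted p = 0.016) and Tgfb1 (0.29, adjusted p = 0.0186) were called, and Tgfb1 was also called without KO 73 (0.29, adjusted p = 0.0383).

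A list of TGFB ligands, precursors known to be cut by FURIN and related genes held 16 tested members. Furin itself, Pcsk7, Cpd, Lrrc32 and Nrros were among the related genes. Of the 16, 1 had a called higher and 2 a called lower KO response (18.8%, beside 12% of all genes). Lrrc32, which tethers latent TGFB1 to the cell surface, differed by 1.82 ± 0.52 (adjusted p = 0.0395). Pdgfb, a growth factor, differed by −1.02 ± 0.29 (adjusted p = 0.0416), and Igf1r, the receptor of insulin-like growth factor, by −0.59 ± 0.17 (adjusted p = 0.0395). Without the block 1 of the 16 was called, and leaving out 1 number gave between 0 (without WT 67) and 6 calls (without WT 62), with 4 without KO 73.

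The 8 genes with the smallest p spanned several functions. In each of them the 5 KO responses did not overlap the 5 WT responses, as in 732 of all genes (6.41%) and 534 of the 1366 called. The 8 were picked by this same difference, so the separation adds no support. Trim56, an antiviral ubiquitin ligase on chromosome 5 (ENSMUSG00000043279, GRCm38 137105644 to 137116209), stood at 31.2, 23.8, 27.8, 33.6 and 22 CPM in KO with TGFB1 and at 48.9, 35.7, 49.4, 51.4 and 42.5 CPM in KO without cytokine, against 40.1, 53.4, 54.5, 36.4 and 61.7 CPM in WT with TGFB1 and 37.7, 43.4, 52.1, 34.8 and 51.1 CPM in WT without cytokine. It fell by 0.72 ± 0.07 on the log2 scale in KO and was not called in WT, where the change was 0.16 ± 0.07, and the difference was −0.88 ± 0.10 (adjusted p = 0.00434). Each KO culture with TGFB1 stood below its own control.

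Idh1, which encodes the cytosolic isocitrate dehydrogenase that yields NADPH (chromosome 1, ENSMUSG00000025950, 65158616 to 65186500), had 38.1, 37.5, 39.2, 37.6 and 46.1 CPM in KO with TGFB1 and 26.7, 18.5, 23.2, 26.3 and 21.8 CPM in KO without cytokine, against 30.2, 17.9, 24.1, 32.5 and 16.5 CPM in WT with TGFB1 and 33.5, 27.5, 28.6, 38.8 and 29.4 CPM in WT without cytokine. It rose by 0.78 ± 0.11 in KO and fell by 0.41 in WT, a difference of 1.18 ± 0.16 (adjusted p = 0.00871). Atp1b1, a subunit of the sodium and potassium pump, averaged 89.3 ± 10.9 CPM in KO with TGFB1 and 30.7 ± 9.80 CPM in KO without cytokine, against 55.4 ± 7.63 CPM in WT with TGFB1 and 50.9 ± 7.52 CPM in WT without cytokine (SD, n = 5 each). It rose in KO and was not called in WT, with a difference of 1.46 ± 0.20 (adjusted p = 0.00947). Lgmn, the lysosomal protease legumain, rose in both genotypes, by 2.14 ± 0.10 in KO and 1.11 ± 0.10 in WT (difference 1.02 ± 0.14, adjusted p = 0.00947). Igfbp7, a secreted binding protein, averaged 4.78 ± 0.852 CPM in KO with TGFB1 and 10.1 ± 3.80 CPM in KO without cytokine, against 10.3 ± 4.09 CPM in WT with TGFB1 and 4.17 ± 1.88 CPM in WT without cytokine. It fell in KO and rose in WT (difference −2.35 ± 0.34, adjusted p = 0.0118). Cdk17, a kinase, fell in KO and was not called in WT (difference −0.53 ± 0.08, adjusted p = 0.0139). Of these genes, Trim56, Idh1, Atp1b1, Lgmn, Igfbp7 and Cdk17 were called in each of the 10 fits without 1 number, and also without the block.

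The largest differences among called genes with at least 4 CPM in their highest group were Ubd on the higher side and Ifi206 on the lower side. Ubd encodes FAT10, a ubiquitin-like protein (chromosome 17, ENSMUSG00000035186, 37193892 to 37196095). It stood at 5.46, 5.93, 4.76, 6.56 and 6.72 CPM in KO with TGFB1 and at 0.713, 0.104, 0.924, 0.430 and 0.200 CPM in KO without cytokine, against 1.79, 0.471, 0.619, 1.14 and 0.960 CPM in WT with TGFB1 and 0.665, 1.03, 0.823, 1.19 and 1.13 CPM in WT without cytokine. The KO cultures with TGFB1 stood above each of the other 15 libraries. The difference was 3.64 ± 0.58 (adjusted p = 0.0153), or 3.65 in KO against 0.01 in WT. The rest of the 10 largest on the higher side were Tshb, the beta subunit of thyrotropin, with a difference of 2.79, Actr3b, an actin-related protein, with 2.24, Gpld1 with 2.20, Socs2 with 2.1, Dock4 with 2.06, Rragd, a GTPase that acts on mTORC1, with 2.06, Cish with 1.98, Nupr1 with 1.93 and Pros1, the anticoagulant protein S, with 1.85. On the lower side stood Cavin3 with −2.62, Ccl5 with −2.59, Nrgn with −2.54, Ccl6 with −2.45, Ifi214 with −2.43, Gpr183, a receptor for oxysterols, with −2.43, Ncald with −2.41, Ramp3 with −2.39 and Igfbp7 with −2.35. Of the 19 largest beside Ubd, adjusted p-values lay between 0.0118 and 0.0449. Without the block Gpld1 (adjusted p = 0.148), Cish (0.127), Tshb (0.0881), Ccl6 (0.0875), Socs2 (0.0721), Cavin3 (0.0718), Dock4 (0.0682), Ifi206 (0.0667) and Ncald (0.0561) were not called. Leaving out 1 number at a time, Gpld1, Dock4 and Cish were called in 2 of 10 fits, Socs2 in 4, Tshb, Cavin3 and Nupr1 in 5, Gpr183 in 6 and Rragd in 9, and the other 11 in all 10. Leaving out any one of WT 67, KO 68, WT 71 and WT 75 ended the calls of Gpld1, Dock4, Cish, Socs2, Tshb, Cavin3, Nupr1 and Gpr183. Leaving out KO 74 ended them for the same genes except Gpr183, and leaving out WT 75 ended that of Rragd as well.

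**Figure D3:**
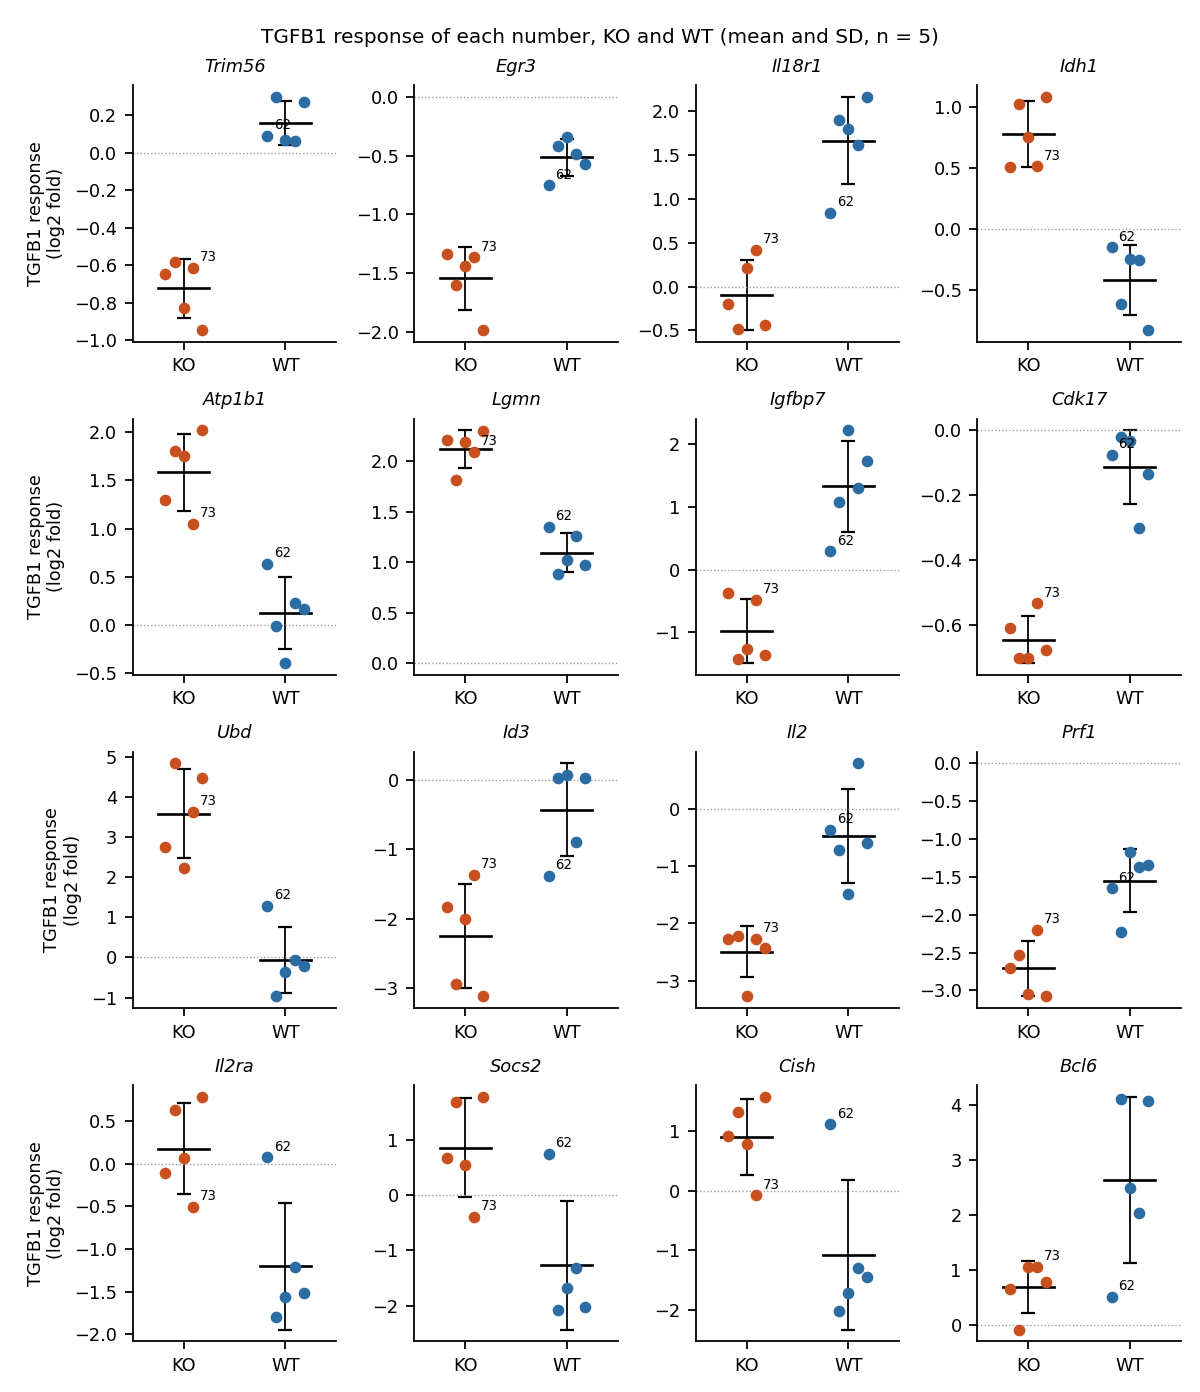
Log2 change with TGFB1 of 16 genes in each of the 5 KO and 5 WT numbers, with the mean and SD of each genotype, and with KO 73 and WT 62 labelled. The KO and WT points do not overlap for Ubd and Trim56, and for Il2ra, Socs2 and Cish WT 62 lies apart from the other WT points.

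Interleukin 2 is the growth factor that activated T cells make for themselves. It acts through a receptor whose alpha chain is Il2ra, and STAT5 downstream of it is known to raise Il2ra, Cish and Socs2, the last pair being feedback inhibitors. Il2 (chromosome 3, ENSMUSG00000027720, 37120523 to 37125959) stood at 1.73, 3.45, 2.07, 0.761 and 2.85 CPM in KO with TGFB1 and at 8.82, 16.5, 21, 4.08 and 15.9 CPM in KO without cytokine, against 3.91, 0.825, 0.354, 1.52 and 0.864 CPM in WT with TGFB1 and 5.10, 1.44, 1.18, 0.835 and 1.36 CPM in WT without cytokine. It fell by 2.58 ± 0.21 in KO and was not called in WT, a difference of −2.16 ± 0.36 (adjusted p = 0.0153), and the 5 KO responses lay below the 5 WT responses. KO minus WT was 0.75 with TGFB1 and 2.77 without cytokine, so the genotypes were closer with TGFB1. Without the block the difference was not called (adjusted p = 0.123).

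Il2ra (chromosome 2, ENSMUSG00000026770, 11642807 to 11693193) went the other way. It had 821, 1279, 898, 629 and 1312 CPM in KO with TGFB1 and 882, 825, 859, 892 and 759.5 CPM in KO without cytokine, against 865, 262, 211, 359 and 305 CPM in WT with TGFB1 and 821, 910.0, 627, 829 and 871 CPM in WT without cytokine. TGFB1 lowered it in WT and no change was called in KO, and the difference was 1.39 ± 0.32 (adjusted p = 0.022). WT 62 kept its control level, while the other 4 WT cultures with TGFB1 lay below each KO culture. Cish had 118, 160.3, 111, 75.9 and 179.9 CPM in KO with TGFB1 and 62.5, 63.5, 64.5, 79.9 and 59.8 CPM in KO without cytokine, against 192, 22, 22.6, 50.8 and 35.6 CPM in WT with TGFB1 and 88.6, 90.0, 74.9, 124 and 97.9 CPM in WT without cytokine. Its difference was 1.98 ± 0.50 (adjusted p = 0.028). Socs2 had 113, 169, 93.3, 78.1 and 201 CPM in KO with TGFB1 and 70.7, 52.3, 64.0, 102 and 58.3 CPM in KO without cytokine, against 137, 21, 25.9, 45.3 and 22.9 CPM in WT with TGFB1 and 81, 88.3, 82.9, 113 and 93.2 CPM in WT without cytokine, with a difference of 2.1 ± 0.52 (adjusted p = 0.0272). In both feedback genes WT 62 rose with TGFB1 and the other 4 WT cultures stood below their controls. The calls of Il2ra, Cish and Socs2 were each lost without the block (adjusted p = 0.0713, 0.127 and 0.0721) and without any one of WT 67, KO 68, WT 71, KO 74 and WT 75, with adjusted p of at most 0.0672, 0.0802 and 0.0794. Cish and Socs2 were also lost without KO 63, and Cish without KO 70 or WT 72. Without WT 62 each of the 3 was called.

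The receptor of interleukin 18, a cytokine that amplifies interferon-gamma production, rose in WT cells and was not called in KO cells. Il18r1, its ligand-binding chain (chromosome 1, ENSMUSG00000026070, 40465552 to 40500854), stood at 10.9, 11.7, 16.4, 17.0 and 8.47 CPM in KO with TGFB1 and at 12.6, 16.3, 14.1, 12.7 and 11.5 CPM in KO without cytokine, against 17.2, 42.9, 75.7, 40.4 and 29.6 CPM in WT with TGFB1 and 9.54, 11.4, 21.6, 13.1 and 6.55 CPM in WT without cytokine. All 5 WT cultures stood above their controls, WT 62 by the least. The change was −0.09 ± 0.17 in KO and 1.69 ± 0.16 in WT, and the difference was −1.77 ± 0.23 (adjusted p = 0.00871). Jak2, a kinase of many cytokine receptors, fell in KO and rose in WT (difference −0.46 ± 0.09, adjusted p = 0.0153). Stat4, the transcription factor of interleukin 12 signalling, fell in KO and was not called in WT (difference −0.74 ± 0.19, adjusted p = 0.0279). The Stat4 call was lost without the block (adjusted p = 0.0710) and held in 4 of 10 fits without 1 number. In all, 6 of 32 tested cytokine receptor and JAK/STAT genes had a called higher and 6 a called lower KO response (37.5%, beside 12% of all genes). Without the block 2 of 32 were called, and leaving out 1 number gave between 2 (without WT 67) and 21 calls (without WT 62), with 14 without KO 73.

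The palindrome bound by STAT factors, TTCNNNGAA, was looked for in the RefSeq promoters of GRCm38.p6, from 250 bases before a start site to 50 after it, since Cish and Il18r1 differed in opposite directions. Of 8622 tested genes with a promoter in the table, 8.29% held it, and so did 7 of 26 genes of the cytokine receptor and JAK/STAT list (26.9%). Among the called genes it was in 10.0% of those with a higher and in 8.99% of those with a lower KO response. The Cish promoter and 1 of the 3 Il18r1 promoters each hold a pair of matches, shown in capitals. The pattern searched is the same on both strands. The Cish matches begin 0 and 11 bases after the start site and the Il18r1 matches 219 and 152 bases before it.
Cish promoter, chr9:107296409-107296708, plus strand: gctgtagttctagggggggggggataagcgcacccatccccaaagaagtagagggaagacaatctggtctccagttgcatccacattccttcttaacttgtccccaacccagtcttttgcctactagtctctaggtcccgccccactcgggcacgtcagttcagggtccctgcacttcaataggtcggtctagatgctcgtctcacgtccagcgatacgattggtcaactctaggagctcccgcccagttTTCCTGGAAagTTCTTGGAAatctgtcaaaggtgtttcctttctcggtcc
Il18r1 promoter, chr1:40465756-40466055, plus strand: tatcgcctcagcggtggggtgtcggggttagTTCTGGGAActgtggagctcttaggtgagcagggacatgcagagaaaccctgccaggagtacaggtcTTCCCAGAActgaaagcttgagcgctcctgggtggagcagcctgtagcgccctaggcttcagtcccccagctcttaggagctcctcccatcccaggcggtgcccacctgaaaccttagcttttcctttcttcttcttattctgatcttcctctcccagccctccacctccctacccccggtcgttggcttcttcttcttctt

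Cytokine and cytotoxic genes had the lower KO response where they differed, with 1 exception. Of 19 tested cytokines and chemokines, 5 had a called lower KO response and none a higher one (26.3%, beside 12% of all genes). Ccl5, a chemokine of effector and memory CD8+ cells (chromosome 11, ENSMUSG00000035042, 83525778 to 83530518), stood at 1.60, 0.863, 0.829, 2.85 and 0.829 CPM in KO with TGFB1 and at 5.17, 8.87, 10.2, 6.99 and 12.1 CPM in KO without cytokine, against 2.90, 4.01, 3.09, 3.42 and 6.05 CPM in WT with TGFB1 and 4.33, 4.62, 2.82, 3.70 and 4.41 CPM in WT without cytokine. KO minus WT was −1.53 with TGFB1 and 1.06 without cytokine, so KO was the lower genotype with TGFB1 and the higher one without. It fell by 2.63 ± 0.32 in KO and was not called in WT, and the difference was −2.59 ± 0.44 (adjusted p = 0.0153). Xcl1, a chemokine for cross-presenting dendritic cells, differed by −1.44 ± 0.39 (adjusted p = 0.0339). The Xcl1 call was lost without the block (adjusted p = 0.103) and held in 2 of 10 fits without 1 number. Without the block 1 of the 19 was called, and leaving out 1 number gave between 2 (without KO 63) and 10 calls (without WT 62), with 5 without KO 73.

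Of 14 tested genes of the cytotoxic machinery, 4 had a called lower and 1 a called higher KO response (35.7%, beside 12% of all genes). The 14 differences had a median of −0.58, and 12 were negative. Prf1, the pore-forming perforin (chromosome 10, ENSMUSG00000037202, 61297833 to 61304680), stood at 14.9, 26.3, 17.5, 14.8 and 14.3 CPM in KO with TGFB1 and at 98.2, 152, 146, 68.4 and 121 CPM in KO without cytokine, against 38.9, 24.6, 23.8, 20.4 and 35.5 CPM in WT with TGFB1 and 122, 116, 53.8, 53.0 and 90.0 CPM in WT without cytokine. It fell in both genotypes, by 2.72 in KO and by 1.56 in WT, a difference of −1.16 ± 0.20 (adjusted p = 0.0153). Nkg7, a protein of cytotoxic granules, averaged 116 ± 23.9 CPM in KO with TGFB1 and 223 ± 31.2 CPM in KO without cytokine, against 151 ± 24.7 CPM in WT with TGFB1 and 191 ± 24.2 CPM in WT without cytokine. Its difference was −0.60 ± 0.12 (adjusted p = 0.0153), and its 5 KO responses lay below the 5 WT responses. Lamp1, the granule membrane protein, went the other way, with a difference of 0.31 ± 0.06 (adjusted p = 0.0182). Prf1 and Nkg7 were not called without the block (adjusted p = 0.0855 and 0.0828). Without the block 3 of the 14 were called, and leaving out 1 number gave between 2 (without WT 75) and 9 calls (without KO 73), with 7 without WT 62. Klrk1, an NK cell marker that activated CD8+ T cells also express, gave most of the sum of the NK cell marker list, which lay at 29.3 to 47.8 CPM in KO with TGFB1, 86.8 to 107.9 CPM in KO without cytokine, 30.1 to 69.9 CPM in WT with TGFB1 and 84.5 to 101.7 CPM in WT without cytokine. The NK cell receptors Ncr1 and Klrb1c were at 0 in all 10 libraries with TGFB1. In bulk RNA of this kind, fewer cells of a type and less RNA per cell cannot be told apart.

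Genes of naive and memory T cells were mostly lower in the KO response. Of 24 tested members, 10 had a called lower and 2 a called higher KO response (50%, beside 12% of all genes). The 24 differences had a median of −0.50, and 21 were negative. Id3, an inhibitor of E proteins that marks memory precursors (chromosome 4, ENSMUSG00000007872, 136143497 to 136145755), stood at 18.9, 9.81, 16.3, 25 and 8.29 CPM in KO with TGFB1 and at 67.5, 76.2, 65.7, 64.8 and 73.1 CPM in KO without cytokine, against 21.7, 61.6, 67.5, 31.8 and 64.1 CPM in WT with TGFB1 and 56.6, 60.5, 64.1, 59.2 and 62.7 CPM in WT without cytokine. With TGFB1 WT 62 lay within the KO range, and WT 72 lay between it and the other 3 WT cultures. The difference was −1.82 ± 0.35 (adjusted p = 0.0153), and it stayed called without the block and without each number in turn. Satb1, a chromatin organiser, averaged 94.4 ± 29.8 CPM in KO with TGFB1 and 138 ± 24.9 CPM in KO without cytokine, against 207 ± 50.9 CPM in WT with TGFB1 and 202 ± 39.3 CPM in WT without cytokine (difference −0.60 ± 0.12, adjusted p = 0.0162). Its call was lost without the block (adjusted p = 0.195) and held in 8 of 10 fits without 1 number. The naive cell factor Tcf7 (difference −0.53 ± 0.26, adjusted p = 0.179) and the homing receptor Ccr7 (−0.17 ± 0.18, adjusted p = 0.535) were not called, although Tcf7 was called without WT 62 (−0.79, adjusted p = 0.00414). The calls on the higher side were Atp1b1, above, and Il7r, the interleukin 7 receptor, with 0.66 (adjusted p = 0.0264; Il7r was chosen after its values were seen). Without the block 3 of the 24 were called, and leaving out 1 number gave between 2 (without KO 68) and 19 calls (without WT 62), with 15 without KO 73.

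Transcription factors of effector fate gave 1 called higher and 5 called lower of 25 tested (24%, beside 12% of all genes). Bcl6, a repressor of effector differentiation (chromosome 16, ENSMUSG00000022508, 23965052 to 23988852), had 1.60, 1.08, 1.76, 1.90 and 1.29 CPM in KO with TGFB1 and 0.980, 1.15, 0.792, 0.860 and 0.699 CPM in KO without cytokine, against 1.79, 10.6, 11.1, 4.28 and 13.2 CPM in WT with TGFB1 and 1.22, 0.513, 1.88, 0.954 and 0.678 CPM in WT without cytokine. It rose in WT, WT 62 least, and was not called in KO, with a difference of −2.11 ± 0.62 (adjusted p = 0.0423). That call was lost without the block (adjusted p = 0.0693) and without each number except WT 62 and KO 73, with adjusted p of at most 0.113. Irf8, a factor of effector programming, had the higher KO response (0.45 ± 0.11, adjusted p = 0.0262). The Irf8 call was lost without the block (adjusted p = 0.220) and held in 4 of 10 fits without 1 number. Without the block 1 of the 25 was called, and leaving out 1 number gave between 1 (without WT 67) and 14 calls (without WT 62), with 10 without KO 73.

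Of the genes of T cell activation and costimulation, 3 of 29 tested had a called higher and 6 a called lower KO response (31%, beside 12% of all genes). Egr3, an early transcription factor downstream of the T cell receptor (chromosome 14, ENSMUSG00000033730, 70077203 to 70082614), had 30.8, 34.6, 38.1, 23.6 and 24.9 CPM in KO with TGFB1 and 78.0, 105, 104, 61.0 and 99.2 CPM in KO without cytokine, against 32.6, 45.5, 21.4, 22.8 and 37.4 CPM in WT with TGFB1 and 55.0, 60.8, 27.1, 32.1 and 55.6 CPM in WT without cytokine. It fell in both genotypes, more in KO, and the difference was −1.03 ± 0.13 (adjusted p = 0.00755). With TGFB1 the genotypes were close, at −0.04 KO minus WT, and without cytokine they were 1.00 apart. Without the block the difference was not called (adjusted p = 0.0797). Rel, an NF-kappa-B subunit, differed by −0.80 (adjusted p = 0.0153) and stayed called without the block. Without the block 1 of the 29 was called, and leaving out 1 number gave between 2 (without WT 71) and 18 calls (without WT 62), with 13 without KO 73.

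Inhibitory receptors and their ligands had 4 of 15 tested genes with a called lower KO response and none with a higher one (26.7%, beside 12% of all genes). Cd160 averaged 8.26 ± 3.84 CPM in KO with TGFB1 and 22 ± 9.34 CPM in KO without cytokine, against 16.3 ± 7.06 CPM in WT with TGFB1 and 13.1 ± 4.97 CPM in WT without cytokine (difference −1.72 ± 0.35, adjusted p = 0.0169). Cd5, a negative regulator of T cell receptor signalling, fell in KO and rose in WT (difference −0.86 ± 0.18, adjusted p = 0.0185), and the PD-1 ligand gene Pdcd1lg2 differed by −1.22 ± 0.23 (adjusted p = 0.0153). Cd160 and Pdcd1lg2 were not called without the block (adjusted p = 0.0675 and 0.0821). Of homing receptors and integrins, 2 of 25 had a called higher and 4 a called lower KO response (24%). The chemokine receptor Ccr4 was on the higher side (1.27 ± 0.35, adjusted p = 0.0377), and Gpr183 (−2.43 ± 0.52, adjusted p = 0.0196) and Cxcr6, a receptor of tissue-resident cells (−1.19 ± 0.36, adjusted p = 0.0465), on the lower. Ccr4 and Cxcr6 were not called without the block (adjusted p = 0.0952 and 0.101), and were called in 3 and 2 of 10 fits without 1 number. Without the block 2 of the 15 and 1 of the 25 were called. Leaving out 1 number gave between 1 (without KO 68) and 8 inhibitory receptor genes (without WT 62), and between 0 (without WT 67) and 11 homing genes (without WT 62), with 7 and 8 without KO 73.

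Markers of regulatory and interleukin 17 producing cells mostly responded alike in direction, with 9 of 14 tested genes that rose in KO and 10 that rose in WT. Capg, an actin-capping protein, rose by 0.83 ± 0.09 in KO and by 1.30 ± 0.09 in WT on the log2 scale (difference −0.47 ± 0.12, adjusted p = 0.0321), and this call was lost without the block (adjusted p = 0.0724) and without any one of KO 63, WT 67, KO 68, KO 70, WT 71, KO 74 and WT 75, with adjusted p of at most 0.0901. Foxp3, which directs regulatory T cell identity, averaged 10.1 ± 4.4 CPM in KO with TGFB1 and 0.143 ± 0.234 CPM in KO without cytokine, against 2.87 ± 1.34 CPM in WT with TGFB1 and 0.275 ± 0.259 CPM in WT without cytokine (SD, n = 5 each). With TGFB1 each KO culture was above each WT culture, but the difference in response of 2.57 ± 0.99 was not called (adjusted p = 0.0954). Without KO 73 it was 4.05 and was called (adjusted p = 0.0152). Of the 14, 1 had a called higher and 2 a called lower KO response (21.4%, beside 12% of all genes). Of 16 tissue residency genes it was 0 and 2, a share (12.5%) near that of all genes. Without the block 0 genes of either list were called by edgeR's quasi-likelihood test, without WT 62 they had 8 and 7 calls, and without KO 73 they had 7 and 4.

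Interferon-stimulated genes held some of the largest differences. Of 33 tested type I interferon response genes, 1 had a called higher and 5 a called lower KO response (18.2%, beside 12% of all genes). The 33 differences had a median of −0.41, and 24 were negative. Ifi214, a member of the PYHIN family of DNA sensors, had 1.60, 0.647, 0.725, 1.52 and 0.0921 CPM in KO with TGFB1 and 8.73, 8.35, 7.52, 8.71 and 7.39 CPM in KO without cytokine, against 2.90, 5.66, 7.07, 2.0 and 6.43 CPM in WT with TGFB1 and 7.21, 6.57, 10.5, 7.28 and 8.02 CPM in WT without cytokine. It fell in both genotypes, by 3.21 in KO and by 0.77 in WT (difference −2.43 ± 0.44, adjusted p = 0.0153). Its relative Ifi206 averaged 0.321 ± 0.333 CPM in KO with TGFB1 and 1.64 ± 1.26 CPM in KO without cytokine, against 6.16 ± 3.75 CPM in WT with TGFB1 and 3.53 ± 2.05 CPM in WT without cytokine, a difference of −3.15 ± 0.56 (adjusted p = 0.0153). The PYHIN genes are close copies of each other, so how reads were shared among them is uncertain. Zbp1, a sensor of nucleic acids, differed by −0.75 ± 0.19 (adjusted p = 0.027). The regulator Irf7 (−1.57 ± 0.50, adjusted p = 0.0547) and Isg15 (−0.41 ± 0.43, adjusted p = 0.537) were not called. Without the block 1 of the 33 was called, and leaving out 1 number gave between 2 (without WT 67) and 12 calls (without WT 62), with 8 without KO 73. Irf7 was called without WT 62 (−1.69, adjusted p = 0.0176) and without KO 73 (−2.15, adjusted p = 0.0248).

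The list of interferon-gamma response genes was split, with 4 called higher and 2 called lower of 31 tested (19.4%, beside 12% of all genes). Iigp1, a GTPase that acts on intracellular parasites, had 209.9, 244, 226, 161 and 281 CPM in KO with TGFB1 and 106, 72, 81.2, 145 and 71 CPM in KO without cytokine, against 166, 103, 104, 106 and 98.7 CPM in WT with TGFB1 and 126, 129.6, 138, 158 and 124 CPM in WT without cytokine. It rose by 1.27 ± 0.21 in KO and was not called in WT, with a difference of 1.52 ± 0.29 (adjusted p = 0.0153). Gbp8, a guanylate-binding protein of a family of close copies, was on the lower side (−1.32 ± 0.33, adjusted p = 0.0277), a call lost without the block (adjusted p = 0.0962). Of the 31, 1 was called without the block, and leaving out 1 number gave between 1 (without WT 67) and 11 calls (without WT 62), with 9 without KO 73. The interferon-stimulated response element, searched as GAAA, any 2 bases and GAAA on both strands, was in the promoters of 3.89% of the 8622 tested genes with a promoter and of 16 of 25 genes of the type I list (64.0%). It was in 4.16% of called genes with a higher and 4.59% of those with a lower KO response. It is shown in capitals for Ifi214, as one of the largest differences, 79 bases before the start site.
Ifi214 promoter, chr1:173535908-173536207, minus strand: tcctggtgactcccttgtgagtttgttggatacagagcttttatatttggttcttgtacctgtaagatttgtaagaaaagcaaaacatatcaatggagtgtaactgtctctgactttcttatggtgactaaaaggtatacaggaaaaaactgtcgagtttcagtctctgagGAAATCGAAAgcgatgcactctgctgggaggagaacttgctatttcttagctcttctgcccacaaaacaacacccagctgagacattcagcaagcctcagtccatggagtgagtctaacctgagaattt

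**Figure D4:**
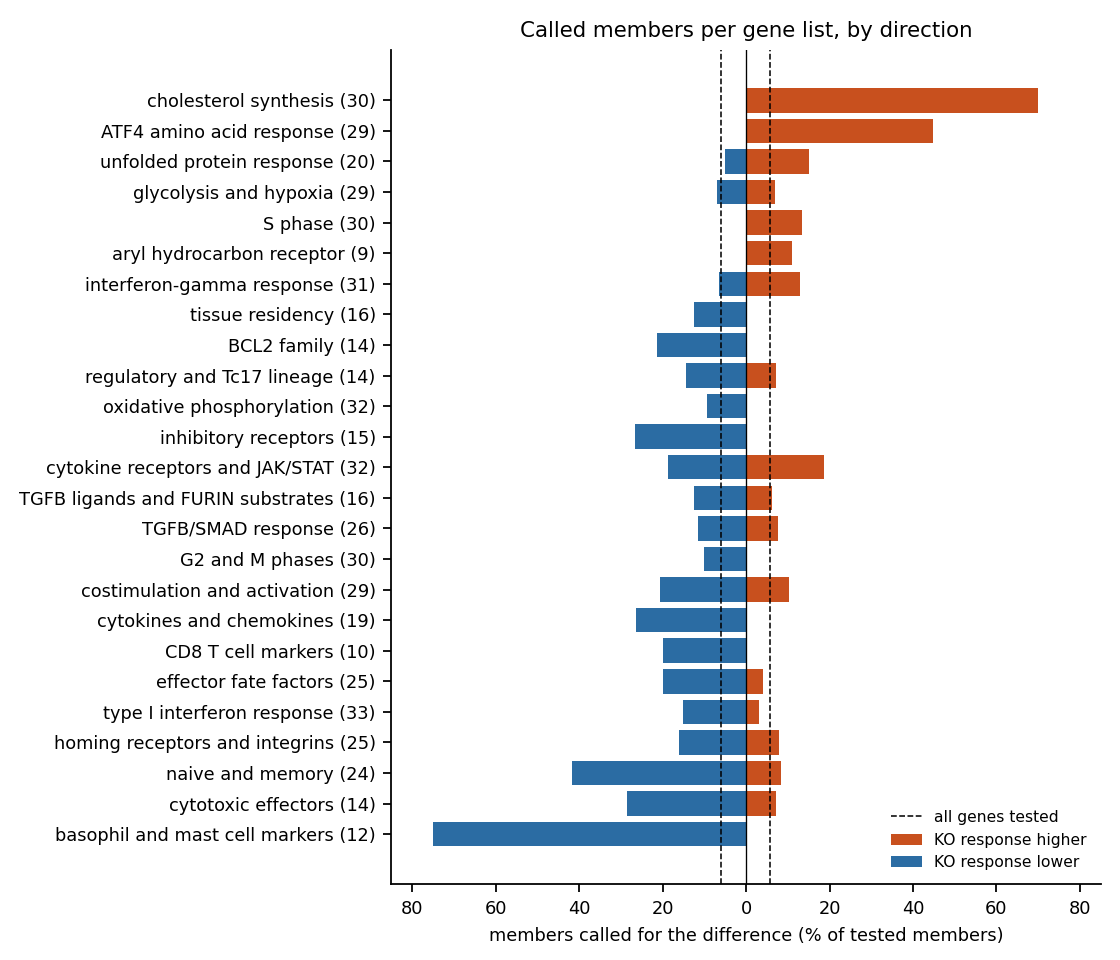
Percent of the tested members of each gene list with a called difference, to the right where the KO response was higher and to the left where it was lower; dashed lines mark 5.85% and 6.12% over all genes. Cholesterol synthesis and the ATF4 amino acid response have bars to the right alone, and naive and memory genes stand mainly to the left.

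Genes of cholesterol synthesis had the largest share of called members among the 29 gene lists, leaving aside a list of basophil markers added later. The pathway is switched on by SREBP2 when sterols are short, and dividing T cells need it for membranes. The list also held genes that are not enzymes of this pathway, the fatty acid desaturase Scd1 and the regulator Srebf2 among them. Of 30 tested members, 21 had a called higher KO response and none a lower one (70%, beside 12% of all genes). The differences of all 30 were above 0. Their median difference was 0.70, from a median change of 0.13 in KO and −0.57 in WT. In WT 25 of the 30 fell and none rose, while in KO 6 rose and 4 fell. Mvd, which makes isopentenyl diphosphate (chromosome 8, ENSMUSG00000006517, 122433601 to 122443422), had 187, 200.3, 209, 165 and 221 CPM in KO with TGFB1 and 154, 132, 146, 155 and 142 CPM in KO without cytokine, against 150.2, 84.7, 124, 171 and 88.6 CPM in WT with TGFB1 and 191, 178, 148, 183 and 173 CPM in WT without cytokine. It rose in KO and fell in WT (difference 0.96 ± 0.18, adjusted p = 0.0153), and all 5 WT cultures stood below their controls.

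Dhcr7, the last enzyme of the pathway (chromosome 7, ENSMUSG00000058454, 143823145 to 143848410), had 148, 144, 149, 114 and 158 CPM in KO with TGFB1 and 139, 122, 133, 127 and 124 CPM in KO without cytokine, against 122, 76.8, 81.5, 104 and 73.6 CPM in WT with TGFB1 and 146, 142, 124, 136 and 137 CPM in WT without cytokine. It fell in WT and was not called in KO (difference 0.74 ± 0.13, adjusted p = 0.0153). Tm7sf2, a sterol reductase, averaged 39.1 ± 1.82 CPM in KO with TGFB1 and 23.1 ± 2.91 CPM in KO without cytokine, against 27.3 ± 9.52 CPM in WT with TGFB1 and 27.9 ± 4.52 CPM in WT without cytokine (difference 0.83 ± 0.14, adjusted p = 0.0153). Among members chosen after their values were seen, the desaturase Scd1 differed by 1.38 (adjusted p = 0.0154), while the regulator Srebf2 itself differed by 0.07 (adjusted p = 0.600). By number, the median response of the 30 genes lay between −0.23 (KO 73) and 0.28 in KO and between −0.95 and −0.21 (WT 72) in WT, so that KO 73 and WT 72 lay side by side. Mvd and Dhcr7 were called in each fit without 1 number and without the block. Without the block 8 of the 30 were called, and leaving out 1 number gave between 4 (without KO 68) and 26 calls (without WT 62 and without KO 73). The sterol regulatory element TCACNCCAC was in 1.38% of the 8622 promoters and in 1 of 21 promoters of this list. That 1 was Hmgcs1, which was not called, and 0 of 13 promoters of called members held it.

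Genes of the ATF4 amino acid response, which make, import and charge amino acids, moved in the same direction. Of 29 tested members, 13 had a called higher KO response and none a lower one (44.8%, beside 12% of all genes). The differences were above 0 in 27, with a median of 0.55. By number, the median response of the list lay between −0.46 (KO 73) and 0.09 in KO. In WT it lay between −0.98 and −0.21 (WT 62), so the genotypes overlapped. In WT 24 of the 29 fell and 2 rose, and in KO 6 fell and 2 rose. Slc1a4, a transporter of serine and alanine (chromosome 11, ENSMUSG00000020142, 20302180 to 20332713), had 45.0, 65.9, 60.0, 35.8 and 64.4 CPM in KO with TGFB1 and 39.1, 40.5, 39.6, 36.9 and 37.6 CPM in KO without cytokine, against 44.2, 20.7, 12.6, 22 and 19.9 CPM in WT with TGFB1 and 37.5, 40.6, 25.5, 31.2 and 36 CPM in WT without cytokine. WT 62 lay within the KO range, and the other 4 WT cultures stood below their controls. The difference was 1.05 ± 0.23 (adjusted p = 0.02). Psat1, an enzyme of serine synthesis, differed by 0.61 ± 0.14 (adjusted p = 0.0219), and Aldh18a1, which starts proline synthesis, by 0.76 ± 0.17 (adjusted p = 0.0207). None of the 29 was called without the block, and leaving out 1 number gave between 0 (without WT 67) and 25 calls (without WT 62), with 17 without KO 73.

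The ATF4 response element, searched as TGATGNAA on both strands, was in 2.78% of the 8622 promoters, in 8 of 23 promoters of this list (34.8%) and in 5 of 11 of its called members. It was in 4.16% of all called genes with a higher KO response and in 2.94% of those with a lower one. The Slc1a4 promoter is shown for its match 4 bases before the start site, which lies on the opposite strand and is in capitals.
Slc1a4 promoter, chr11:20332664-20332963, minus strand: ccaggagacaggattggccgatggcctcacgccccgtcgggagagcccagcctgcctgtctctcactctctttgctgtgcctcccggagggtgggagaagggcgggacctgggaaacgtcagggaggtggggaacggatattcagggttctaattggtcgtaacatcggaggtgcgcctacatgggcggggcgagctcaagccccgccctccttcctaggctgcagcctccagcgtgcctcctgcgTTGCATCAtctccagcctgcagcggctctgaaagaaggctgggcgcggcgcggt

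Other metabolic and cell cycle groups differed little or in both directions. Glycolysis and hypoxia genes gave 2 called higher and 2 called lower of 29, among them the lactate exporter Slc16a3 (−1.03 ± 0.26, adjusted p = 0.0297) and the oxygen sensor Egln3 (1.48 ± 0.40, adjusted p = 0.0338). Oxidative phosphorylation gave 0 higher and 3 lower of 32. S phase genes gave 4 higher and 0 lower of 30, with Mcm2, a subunit of the replicative helicase, at 0.24 ± 0.07 (adjusted p = 0.0398), a call lost without the block and without each number except WT 62 and KO 73. Genes of the G2 and M phases gave 0 higher and 3 lower of 30, with the mitotic regulator Birc5 at −0.40 ± 0.09 (adjusted p = 0.02). The unfolded protein response gave 3 higher and 1 lower of 20 (20%, beside 12% of all genes). Within it the secretory stress factor Xbp1 was on the higher side (1.15, adjusted p = 0.0242), while the stress sensor Atf6 fell in KO and was not called in WT (difference −0.82, adjusted p = 0.0153). The BCL2 family gave 0 higher and 3 lower of 14 (21.4%), with the death effector Bak1 at −0.54 ± 0.12 (adjusted p = 0.02). Of 9 aryl hydrocarbon receptor genes Tiparp alone was called (0.68 ± 0.15, adjusted p = 0.0219). Without the block between 0 and 1 gene of each of these 7 lists was called, and without WT 62 between 3 (aryl hydrocarbon receptor) and 12 (glycolysis and hypoxia). Without KO 73 between 1 and 6 were called. The called shares of the S phase (13.3%), G2 and M phase (10%), glycolysis and hypoxia (13.8%), aryl hydrocarbon receptor (11.1%) and oxidative phosphorylation lists (9.38%) lay near the 12% of all genes and are no result about those lists.

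**Figure D5:**
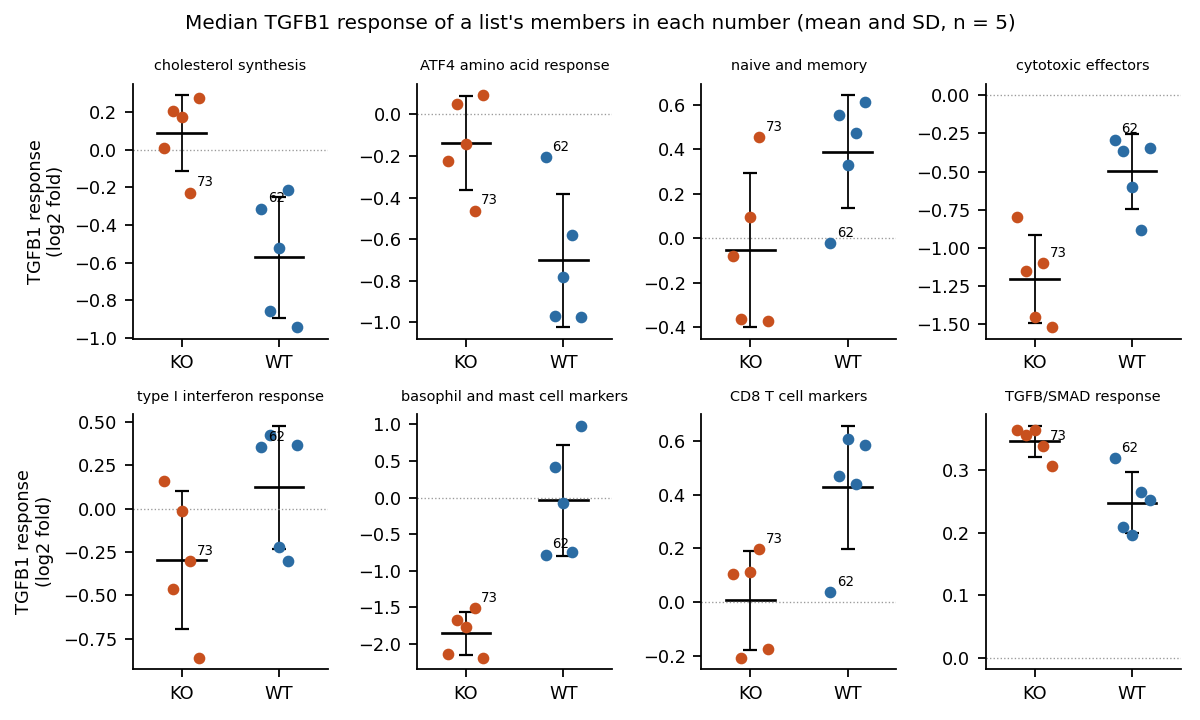
Median log2 change with TGFB1 over the tested members of 8 gene lists, in each of the 5 KO and 5 WT numbers. KO points lie above most WT points for cholesterol synthesis and the ATF4 amino acid response, and below them for basophil and mast cell markers, with WT 75 the highest.

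Marker genes of the cultured cells and of other cell types were followed as well. The 10 CD8 T cell markers had negative differences throughout, with a median of −0.33, and 9 of them rose in WT while 3 rose in KO. Of these, Cd3d, a chain of the T cell receptor complex, differed by −0.85 ± 0.17 (adjusted p = 0.0177), and Cd3g was also called lower. Leaving out 1 number gave between 0 (without WT 67) and 8 calls (without WT 62), with 5 without KO 73. The NK cell list had 4 calls and the myeloid list 2 without WT 62, and 2 and 1 without KO 73. None of the tested B cell, CD4 T cell and erythroid or platelet markers was called by edgeR's quasi-likelihood test, although these lists had 1, 3 and 1 tested members. Of the NK cell and the myeloid markers Tyrobp alone was called, which stands in both lists (difference −2.87, adjusted p = 0.0396). It averaged 0.203 CPM in KO with TGFB1, 1.06 in KO without cytokine, 0.905 in WT with TGFB1 and 0.530 in WT without cytokine. With TGFB1, WT 75 stood at 3.17 CPM and the other WT cultures at 0 to 0.856 CPM. The call was lost without the block (adjusted p = 0.121) and without WT 75 (0.197), and held in 3 of 10 fits without 1 number.

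A list of basophil and mast cell markers was chosen after the results were seen, because Mcpt8 and Ccl6 were among the lower genes. It held 12 tested genes with a median difference of −2.05. Of these, 9 were called lower (75%, beside 12% of all genes called and 6.12% called lower). As the list was picked by this difference, its share adds no support. Mcpt8, a granule protease of basophils, had 2.13, 4.21, 1.97, 2.38 and 1.56 CPM in KO with TGFB1 and 18.8, 17.7, 10.2, 11 and 8.09 CPM in KO without cytokine, against 1.45, 1.65, 6.81, 4.56 and 18.3 CPM in WT with TGFB1 and 3.10, 2.36, 7.06, 12.8 and 14.6 CPM in WT without cytokine. It stood below the control in all 5 KO numbers (difference −1.97 ± 0.35, adjusted p = 0.0153), and WT 75 had the highest level with TGFB1. The Mcpt8 call was lost without the block (adjusted p = 0.113). The 13 markers together lay at 31.5 to 49.3 CPM in KO with TGFB1, 61.9 to 106.1 CPM in KO without cytokine, 26.6 to 146 CPM in WT with TGFB1 and 23.9 to 80.8 CPM in WT without cytokine. In KO 10 of the 12 tested fell and 1 rose. Kit, on this list, rose with TGFB1 in every number, by 3.02 to 3.84 in KO and 2.24 to 4.41 in WT. Il3ra changed by a mean of 0.39 in KO and 0.44 in WT. In KO with TGFB1 Kit stood at 11.4 to 16.3 CPM and Il3ra at 9.42 to 12.4 CPM, so both gave much of that sum. Without the block 1 of the 12 was called, and leaving out 1 number gave between 2 (without WT 75) and 10 calls (without WT 62), with 9 without KO 73. The part of any basophils or mast cells in the other differences, such as those of Il2 and Ccl5, which also fell in KO and were not called in WT, was not tested.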

How the data were processed

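The authors deposited 1 table of raw counts for 30 libraries and 55573 Ensembl genes. The submitters' processing notes name STAR, Trim Galore, FastQC and DESeq2 1.24.0, and the GRCm38 build. How reads were counted, on which strand and with which gene models is not given in the sources used here, so reads of a gene and of an overlapping or antisense gene cannot be told apart. Per the labels' protocols, poly(A) RNA was made into libraries with a directional kit. Reads carried no stated molecular identifiers.

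From the deposited counts, 20 libraries were fitted with edgeR 4.0.16 under R 4.3.3. Here filterByExpr with a minimum count of 10 kept 11414 genes, which held 99.87% of all counts, and TMM factors scaled the libraries and the CPM. The quasi-likelihood model had a term for each of the 10 title numbers and for the TGFB1 response of each genotype, and left 8 residual degrees of freedom. Tests were two-sided, with Benjamini-Hochberg adjustment over all genes tested. Changes are on the log2 scale. Their standard error (SE) is the size of the change divided by the square root of its test's F. The SE of a difference therefore need not match the SEs of both responses. The fitted biological variation between cultures had a coefficient of 9.77%, and the test was first tried on simulated counts with known changes. Log2 CPM per culture used a prior count of 1. No 2 libraries of a group were copies of each other. Symbols and coordinates were looked up in GENCODE vM21 by Ensembl identifier.

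The comparison, the 29 gene lists and 24 key genes were chosen with earlier results of these data known. The genes named are the key genes, the 10 largest called differences in each direction (a group mean of 4 CPM or more was required), the 8 called genes with the smallest p, and up to 3 called members with the smallest p per list; others are marked. A few genes that the rule takes are not reported here. Alternatives were other size factors, filters and tools, fits without the block, with all 30 libraries, with females alone, with a term for the TGFB1 response of numbers above 70, and without each number.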

Additional observations from a re-analysis of the deposited data

Results flagged for a closer look

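The difference in response itself was called in 1366 genes by the test of the interaction, and the 8 genes with the smallest p had differences of −0.88 (Trim56), −1.03 (Egr3), −1.77 (Il18r1), 1.18 (Idh1), 1.46 (Atp1b1), 1.02 (Lgmn), −2.35 (Igfbp7) and −0.53 (Cdk17), KO response minus WT response on the log2 scale.

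Among the 5 responses of a named gene in 1 genotype, a single culture lay far from the other 4 in 17 of 204 groups (8.33%). The rule marks about 1 in 20 groups of independent values. These groups share the same 10 numbers, and many genes were named by their values, so that rate cannot be set against 8.33%. WT 62 was that culture in 11 of the 17 groups. Its response was above the other 4 WT responses for Cish (1.12, the others −2.02 to −1.29), Egln3 (1.64, the others −0.29 to 0.19), Socs2 (0.75, the others −2.07 to −1.31), Iigp1 (0.39, the others −0.58 to −0.33), Actr3b (0.19, the others −2.40 to −1.81) and Xbp1 (−0.18, the others −1.83 to −1.49). It was below them for Nrgn (−1.67, the others 0.11 to 0.45), Gpr183 (−1.12, the others 0.67 to 1.34), Cd5 (−0.28, the others 0.38 to 0.57), Tcf7 (0.15, the others 1.27 to 1.68) and Skil (1.38, the others 1.76 to 1.89).

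The remaining cultures so marked were WT 72 for Furin (1.70, the others 1.03 to 1.22), WT 71 for Lamp1 (−0.21, the others −0.07 to −0.03), WT 67 for Nupr1 (−0.26, the others 0.74 to 1.15), KO 70 for Il2 (−3.28, the others −2.43 to −2.22), KO 63 for Mcpt8 (−3.08, the others −2.31 to −2.05) and KO 73 for Pdgfb (1.44, the others 0.50 to 0.69).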

How the results depend on the processing

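The count of 1366 genes was 1378 with DESeq2's size factors, 1421 with a minimum count of 30, 1484 with DESeq2, 1470 with limma-voom and 1073 with all 30 libraries and the block. It moved to 2404 with no filter on low counts, 329 without the replicate block, 387 with all 30 libraries and no block, 2828 with females alone and 734 with a term for the TGFB1 response of numbers above 70. Leaving out 1 number gave 127 (WT 75) to 3268 (WT 62). The count of the KO response lay between 2962 and 4341 and that of the WT response between 4193 and 5861 without 1 number, and the WT count was 3273 with the term for numbers above 70. The cause of these shifts was not tested. The numbers are not stated to be animals: 10 pairs of cultures with 1 number deviated together with correlations of 0.0791 to 0.428 (median 0.230), 8 of them above 0.1, and 9 of 10 pairs were highest with their own number. Of the 88 named genes called, 34 were called in each fit without 1 number, 24 of these also in each other setting, and 34 without the block. None of the 88 changed direction in any setting. The difference of Furin, not called, took both signs without 1 number (−0.033 to 0.129), as did that of Gzmb (−0.781 to 0.112). Depth limits genes of a few CPM most, such as Ubd, Ifi214 and Il2.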
